A study of Drosophila melanogaster with 8 samples.

Results

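The *Drosophila* genes *Sh* and *slo*, of potassium channels, and *nSyb*, of a synaptic vesicle protein, were followed across a self-against-self test of a spotted cDNA array. The clones were those of *Sh* (1 clone, spots 6075 and 6076), *slo* (2 clones, spots 10345 and 10346 and spots 11169 and 11170) and *nSyb* (1 clone, spots 4875 and 4876). They were chosen by gene name, as all clones that the platform annotation gives to these genes, and make up 4 of 8448 clones and 3 of the 2377 genes that carry a clone with a single symbol. Each clone is printed as 2 neighbouring spots, which were averaged.

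All samples were total RNA from pools of about 240 adult *Drosophila melanogaster* females of the wild-type strain Oregon-R, aged 4 to 10 days after emergence and kept at 16 h light, 8 h dark and 60% relative humidity. Every pool was treated topically with 99% ethanol (2 mL) in a Potter's tower, a sprayer that spreads a fine even film, and sampled 6 h later, so no untreated fly is among them. The 8 pools were compared in 4 pairs (1 with 2, 3 with 4, 5 with 6 and 7 with 8). Every pair had a normal-label array, with the odd pool in Cy3, and a reversed-label array, with the dyes exchanged, which gives 4 arrays in each label group. The question was how far ratios stray from 0 when both samples were treated alike. The series has no treatment contrast, and no value below is a response to ethanol. RNA came from whole flies, in which neurons are a minor tissue, and a ratio carries no expression level, so the presence of neuronal transcripts cannot be read from these values.

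*Sh* encodes Shaker, the voltage-gated potassium channel that carries a fast, inactivating outward current and helps to end the action potential. Its mutants were found because their legs shake under ether. *slo* encodes Slowpoke, the large-conductance potassium channel that opens with calcium and voltage and repolarizes nerve terminals and muscle. It is known in flies for its part in tolerance to sedation by alcohols and solvents. *nSyb* encodes neuronal synaptobrevin, the vesicle SNARE protein that pairs with SNAREs of the plasma membrane to fuse synaptic vesicles.

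Values are the authors' deposited log ratios, taken as log2 from their size, with each array's median subtracted. Which channel is the numerator is not given in the sources used here. Across clones, normal-label arrays correlated with the reversed-label arrays of the other pairs, with which they have no RNA in common, at a median of -0.157 (12 comparisons, 9 of them below 0, from -0.412 to 0.128). On this ground, which is not the same in every comparison, the ratio was read as a comparison of pools with a fixed order, and the sign of each reversed-label array was turned. In this dye orientation, dye A stands for whichever dye the numerator pool carried on a normal-label array, dye B stands for the other, and a value below 0 is a stronger signal in dye B. Neither dye is assigned to Cy3 or Cy5. One array stood apart over all clones: the reversed-label array of pair 3 correlated at -0.093 with the mean of the other pairs' arrays, against 0.255 to 0.526 for the other 7. The dye components, pool differences, *slo* clone difference and nearest clones are given with and without it. The number of arrays limits the precision.

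All 4 clones leaned to dye B. Of their 32 values, 28 lay below 0 in dye orientation and 0 reached 2-fold, the farthest being -0.91 (1.88-fold) for *Sh* on the normal-label array of pair 3. On that array 7.63% of all clones were past 2-fold, and on the others 0.604% to 1.88%. The 4 values above 0 all came from reversed-label arrays, 3 of them from the array of pair 3 that stood apart.

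**Figure D1:**
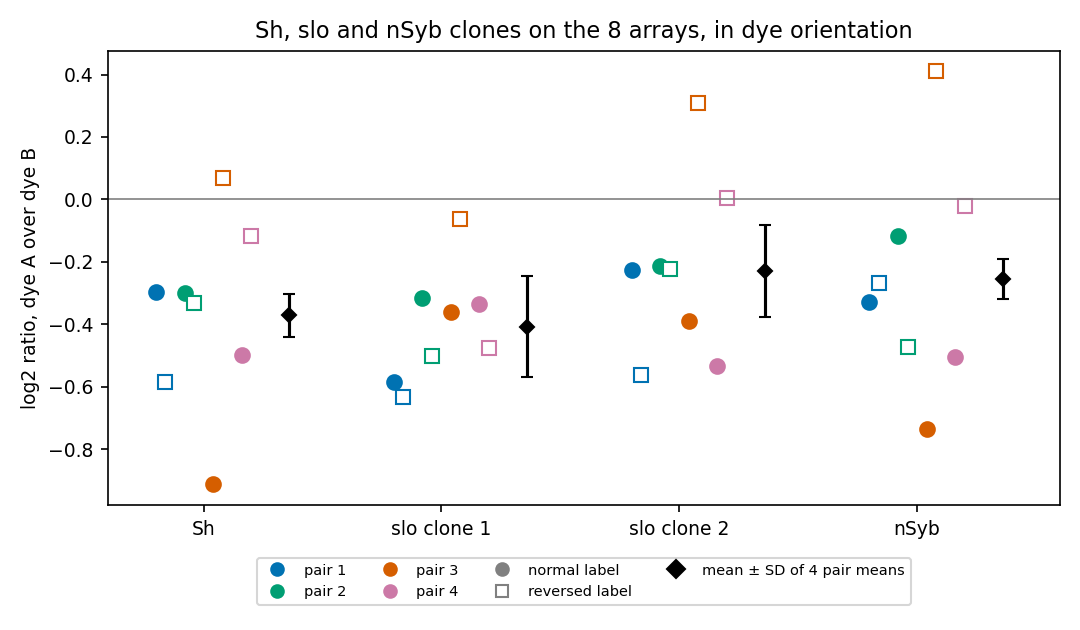
Log2 ratios (dye A over dye B) of the *Sh*, *slo* and *nSyb* clones on each array, with filled circles for normal-label and open squares for reversed-label arrays, colours for the pairs, and black diamonds for the mean ± SD of 4 pair means. Of 32 values, 28 lie below 0, and the open square of pair 3 is the highest value of every clone.

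The *Sh* clone stood at -0.30, -0.30, -0.91 and -0.50 on the normal-label arrays of pairs 1 to 4. On the reversed-label arrays, in dye orientation, it stood at -0.58, -0.33, 0.07 and -0.12. Thus 7 of 8 arrays were below 0, and with signs as deposited the label groups did not overlap, every normal-label value lying below every reversed-label value, as for 6.52% of all clones. The pair means were close together at -0.44, -0.32, -0.42 and -0.31, although in pair 3 that mean joins the lowest and the highest of the 8 values. The dye component of *Sh*, the mean over pairs, was -0.37 ± 0.07 (SD, n = 4 pairs; 95% interval -0.52 to -0.22), a signal 1.29 times stronger in dye B (limma adjusted p = 0.022).

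The first *slo* clone stood at -0.58, -0.31, -0.36 and -0.33 on the normal-label arrays of pairs 1 to 4. Its reversed-label values were -0.63, -0.50, -0.06 and -0.47. It was the member clone below 0 on all 8 arrays, as 2.23% of all clones were. With signs as deposited its label groups therefore could not overlap. Its dye component was -0.41 ± 0.16 (SD, n = 4 pairs; 95% interval -0.60 to -0.22), 1.33 times stronger in dye B (limma adjusted p = 0.0275). Its SD over the 8 arrays, 0.18, was smaller than the median clone's 0.28.

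The second *slo* clone stood at -0.23, -0.21, -0.39 and -0.53 on the normal-label arrays and at -0.56, -0.22, 0.31 and 0.0038 on the reversed-label arrays of pairs 1 to 4. It was below 0 on 6 arrays, and its label groups overlapped. The dye component was -0.23 ± 0.15 (SD, n = 4 pairs; 95% interval -0.41 to -0.05) and did not pass the test (limma adjusted p = 0.11).

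The *nSyb* clone stood at -0.33, -0.12, -0.74 and -0.51 on the normal-label arrays of pairs 1 to 4. Its reversed-label values were -0.27, -0.47, 0.41 and -0.02. Pair 3 held both its lowest and its highest value, the latter higher than 94.3% of all clones on that array, and its label groups overlapped. The pair means were nevertheless -0.30, -0.30, -0.16 and -0.26, and the dye component was -0.26 ± 0.06 (SD, n = 4 pairs; 95% interval -0.41 to -0.10), just short of the threshold (limma adjusted p = 0.0539).

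All 4 clones had an unadjusted p under 0.05 in the dye test, as did 26.5% of all clones. After adjustment 2 of the 4 passed, both towards dye B, where 4.31% of all 8448 clones passed in that direction and 8.56% in either. From the lowest dye component the order was the first *slo* clone, *Sh*, *nSyb* and the second *slo* clone, and no neighbours in it could be told apart at 5%, which 4 pairs cannot reach in the exact two-sided sign-flip permutation test. The first *slo* clone lay below *Sh* in 3 of 4 pairs (difference -0.04 ± 0.17, SD, n = 4 pairs; exact p = 0.75). *Sh* lay below *nSyb* in 4 of 4 (-0.12 ± 0.11; exact p of 1 in 8, the smallest possible), and *nSyb* below the second *slo* clone in 2 of 4 (-0.03 ± 0.10; exact p = 0.75). Both calls depended on the set of pairs. Without pairs 1, 2, 3 and 4 in turn, *Sh* had an adjusted p of 0.116, 0.0866, 0.0672 and 0.0495 in limma, and the first *slo* clone 0.128, 0.109, 0.0537 and 0.0693. The means moved less, from -0.39 to -0.35 for *Sh* and from -0.47 to -0.34 for *slo*. With 8 arrays taken as independent, *Sh* did not pass (0.0748) and the first *slo* clone did (0.0444). With pair 3 represented by its normal-label array alone neither passed (0.124 and 0.122), and the components were -0.49 for *Sh*, -0.45 and -0.32 for the *slo* clones and -0.40 for *nSyb*, so *Sh* came first in the order. With 7 arrays taken as independent, that reversed-label array left out, both passed (0.0495 and 0.0355), and the components were -0.42, -0.47, -0.30 and -0.34. The first *slo* clone also missed the threshold with arrays scaled to one spread (0.0561) and with quantile normalization (0.0548). With the sign of that array of pair 3 turned, *nSyb* also passed (0.0496).

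**Figure D2:**
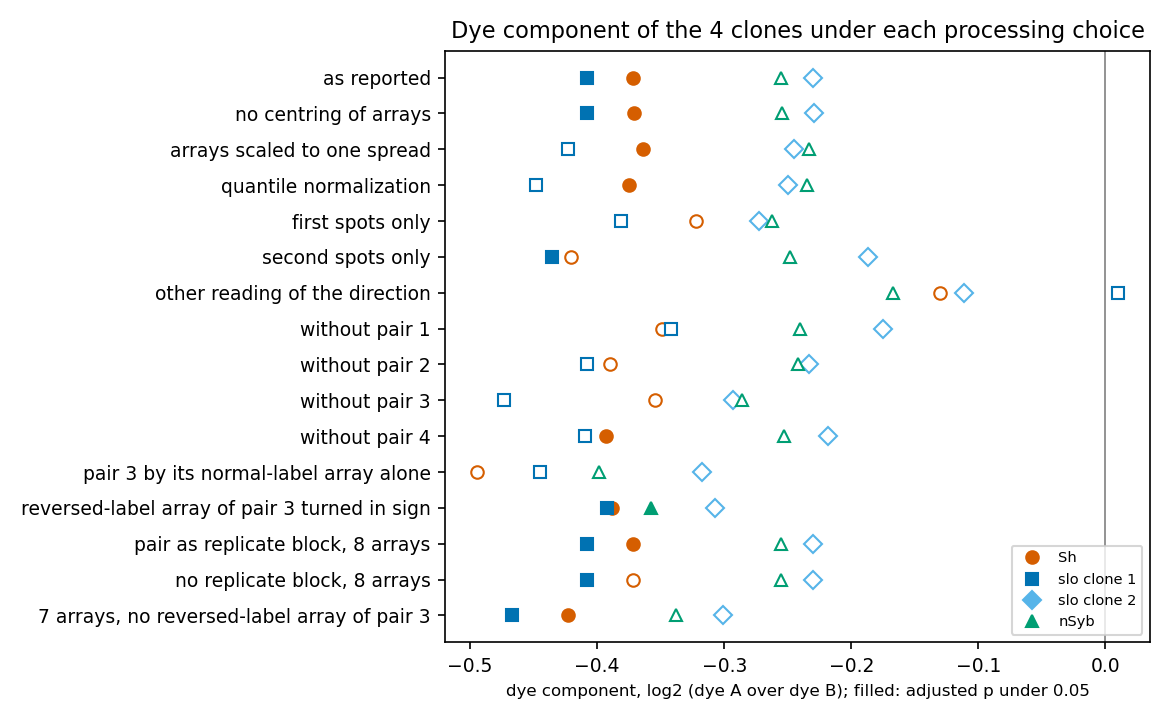
Mean dye component (log2, dye A over dye B) of the 4 clones under each processing choice, filled where the limma adjusted p was under 0.05. The first *slo* clone leads as reported at -0.41, and it alone crosses 0, at 0.0097, under the other reading of the direction, in which none of the 4 passes.

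The 2 *slo* clones are separate probes of one gene, and the first lay below the second in the dye component of 4 of 4 pairs. The difference was -0.18 ± 0.03 (SD, n = 4 pairs). The exact two-sided sign-flip permutation test gave p of 1 in 8, the smallest that 4 pairs allow, so 5% was out of reach. By array the gap ran from -0.48 to 0.20 and was above 0 on 2 arrays, so the small SD of the pair means does not describe single arrays. With pair 3 represented by its normal-label array alone the difference was -0.13 ± 0.11, below 0 in 3 of 4 pairs, and with its reversed-label array turned in sign -0.09 ± 0.19, again below 0 in 3 of 4. With first spots alone the difference was -0.11 ± 0.39 and below 0 in 3 of 4 pairs (exact p of 5 in 8). The annotation used here does not say which part of the *slo* transcript each clone covers.

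Duplicate spots showed how much of this spread arises within an array. For *nSyb* the 2 spots differed by a median of 0.02 log2 units over the 8 arrays, with a largest gap of 0.20. Its root mean square gap, 0.11, was among the smallest 3.79% of clones, where the median clone had 0.31. The wide range of *nSyb* between arrays, from -0.74 to 0.41, was thus shared by both of its spots. The *Sh* spots had a root mean square gap of 0.32 and those of the second *slo* clone 0.38. The first *slo* clone had the widest gap of the 4, 0.49, larger than that of 74.7% of clones. On the normal-label array of pair 3 its spots read 0.22 and -0.94, on opposite sides of 0, and their mean of -0.36 describes neither. Counted by spot, 15 of 16 values of *Sh* and of the first *slo* clone lay below 0, and 14 of 16 of *nSyb* and of the second *slo* clone.

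**Figure D3:**
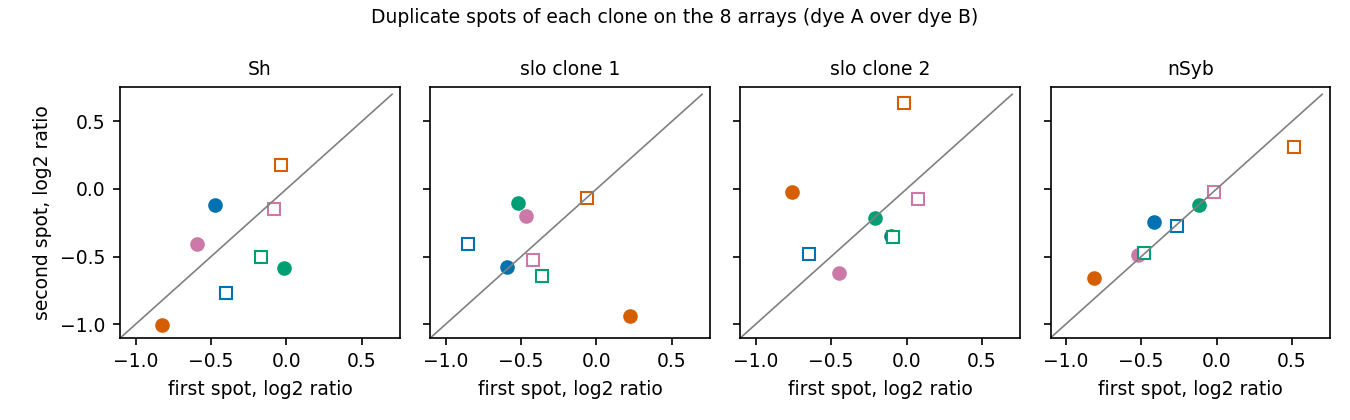
First spot (horizontal axis) against second spot (vertical axis) of each clone, in log2 ratio of dye A over dye B, 1 point per array with symbols and colours as in the plot of values by array and a line of equality. The *nSyb* points follow the line, with a largest gap of 0.20, while the first *slo* clone has a point at 0.22 and -0.94.

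Differences between pools of a pair were estimated from the part of the ratio that follows the pool when dyes are exchanged. In pairs 1, 2 and 4 the coefficients of the 4 clones lay between -0.27 (second *slo* clone, pair 4) and 0.18 (*nSyb*, pair 2), with standard errors of 0.13 to 0.16, and none passed (limma adjusted p = 0.865 or higher). Over all clones 0% passed in each of these pairs. In pair 3 all 4 clones were below 0, lower in the numerator pool. *nSyb* stood at -0.57 ± 0.13 (SE, limma adjusted p = 0.0606), *Sh* at -0.49 ± 0.13 (0.0795), the second *slo* clone at -0.35 ± 0.15 (0.222) and the first at -0.15 ± 0.16 (0.615). The normal-label array of pair 3 had a wider spread of spots (scaled median absolute deviation 0.55) than the other arrays (0.25 to 0.37). With arrays scaled to one spread, *nSyb* stood at -0.45 (limma adjusted p = 0.292) and *Sh* at -0.32 (0.406). With quantile normalization their adjusted p was 0.298 and 0.408.

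None of the 4 passed in pair 3, where 3.2% of all clones did (1.62% lower in the numerator pool), and *nSyb* and *Sh* had an unadjusted p under 0.05 (0.00264 and 0.00634), as did 23.8% of all clones. Without the reversed-label array that stood apart, when the pair 3 difference comes from 1 array and the dye term of the other pairs, *Sh* stood at -0.56 (adjusted p = 0.19) and *nSyb* at -0.45 (0.245). The second *slo* clone was then at -0.10 and the first at 0.11. With that array turned in sign, *nSyb* stood at -0.16 (adjusted p = 0.751), *Sh* at -0.42 (0.447), and the *slo* clones at -0.21 and -0.04. The joint limma F-test of the pair coefficients called 0 of 8448 clones (0%), and 1262 (14.9%) had an unadjusted p under 0.05, among them *nSyb* (0.016, adjusted p = 0.254) and *Sh* (0.0401, adjusted p = 0.317). The second and first *slo* clones were at 0.149 and 0.835 before adjustment. Without the array that stood apart *nSyb* had an unadjusted p of 0.119 and *Sh* of 0.13, with it turned in sign 0.447 and 0.13, and without pair 3 as a whole 0.223 and 0.42, so neither was under 0.05 in these fits. In whole-fly RNA, a pool's content of neurons or muscle and the amount of these transcripts in each cell cannot be told apart.

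**Figure D4:**
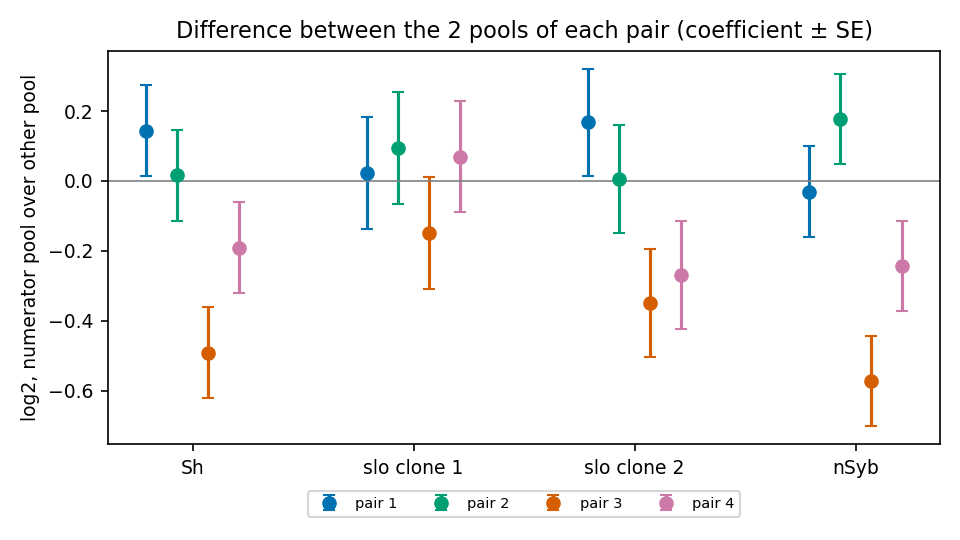
Difference between the pools of each pair (log2, numerator pool over the other pool; coefficient ± SE of the fit to 8 arrays). The pair 3 points of *nSyb* (-0.57) and *Sh* (-0.49) lie farthest from 0, and those of the first *slo* clone stay between -0.15 and 0.09.

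Parity of the pool number carries no treatment, but its comparison is not an independent null. The orientation was set from correlations across pairs in these same data, which tends to place a component that pairs share in the dye part. The even-odd component, the mean pool difference over pairs, was -0.13 ± 0.28 (SD, n = 4 pairs) for *Sh*, with a 95% interval from -0.40 to 0.14. It was 0.0097 ± 0.11 for the first *slo* clone, with an interval from -0.19 to 0.21, and -0.11 ± 0.24 for the second. For *nSyb* it was -0.17 ± 0.32, with an interval from -0.46 to 0.13. None of the 4 passed (limma adjusted p = 0.821 to 0.982) and none had an unadjusted p under 0.05, while over all clones 0% passed and 451 had an unadjusted p under 0.05. Of 3 clones the component lay nearer to 0 without pair 3, at -0.010 for *Sh*, -0.03 for the second *slo* clone and -0.03 for *nSyb*, and without pair 2 that of *nSyb* was -0.28. With 7 arrays taken as independent and the array that stood apart left out, it was -0.08 for *Sh*, 0.07 and -0.04 for the *slo* clones and -0.08 for *nSyb*. Over the 4 pairs the first *slo* clone had the narrowest interval and *nSyb* the widest. If the ratio is read the other way, the dye and even-odd components change places, and the dye calls of *Sh* and *slo* become even-odd calls.

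Other potassium channel genes lay on both sides of 0. Of 22 listed, 5 had a clone. Of these 5 clones 0 passed the dye test in limma (8.56% of all clones), and none had an unadjusted p under 0.05 (26.5%). Their median was 0.03, beside 0.0044 for all clones, and they ran from -0.17 for *eag*, a voltage-gated channel, to 0.16 for *Irk1*, an inward rectifier (limma adjusted p = 0.256 and 0.236). *Shab* (-0.03) and *Shal* (0.10), voltage-gated channels related to Shaker, lay nearer to 0. Among other ion channels, their subunits and ion pumps, 1 of 9 clones passed (8.56% of all clones). It belonged to *nrv2*, a subunit of the sodium pump, and went towards dye A (0.31 ± 0.14, SD, n = 4 pairs; limma adjusted p = 0.0495), with a list median of 0.02.

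Genes of synaptic vesicles and their fusion had 0 of 8 clones past the threshold in limma (8.56% of all clones), with a median of -0.05. The smallest p-values belonged to *cpx*, complexin, which clamps SNARE complexes (0.21, limma adjusted p = 0.0956), and *Snap29*, a SNARE protein (0.18, adjusted p = 0.141). Both lay above 0 and were at an unadjusted p under 0.05, as were 26.5% of all clones. *unc-13*, a priming factor, was at -0.13 and *Rab3*, a vesicle GTPase, at -0.05. Transmitter receptors had 1 of 8 clones past the threshold (8.56% of all clones) and a median of -0.0096. The clone was that of *Lcch3*, a GABA receptor subunit (-0.29 ± 0.06, SD, n = 4 pairs, limma adjusted p = 0.039). *Lcch3* also passed in pair 3, lower in the numerator pool (-0.85, adjusted p = 0.0269), as did 1.62% of all clones.

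Of genes known for roles in the behaviour of flies towards ethanol, other than *slo*, 0 of 9 clones passed in limma (8.56% of all clones). Their median was 0.04. *dnc*, the cyclic AMP phosphodiesterase, had the smallest p (0.23, adjusted p = 0.11), followed by *kra*, a translation regulator (0.21, adjusted p = 0.127). Both were at an unadjusted p under 0.05, as were 26.5% of all clones. *rut*, the adenylyl cyclase, was at 0.04.

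Of the neuron and glia markers 2 of 5 clones passed, both towards dye B, beside 4.31% of all clones in that direction. The median was -0.24, and 4 of the 5 clones lay below 0. They were *pros*, a transcription factor gene (-0.38 ± 0.20, limma adjusted p = 0.0451), and 1 of 2 clones of *fne*, a neuronal RNA-binding protein gene (-0.35 ± 0.15, adjusted p = 0.0393). The other *fne* clone stood at 0.14 (adjusted p = 0.223), and the pair of *fne* clones thus lay on opposite sides of 0. *Rbfox1*, an RNA-binding protein gene, was at -0.07 (adjusted p = 0.565). In pair 3 the pool differences of the 5 clones ran from -0.34 to -0.12, and 0 passed. *elav*, *Appl*, *Nrg*, *Fas2* and *repo* of the list have no named clone here. Some clones of the muscle, eye, and ovary and fat body lists passed in the dye test or in pair 3. Of the muscle clones 3 of 5 passed the dye test (8.56% of all clones), with a median of -0.27 and 3 clones below 0. *TpnC41C* (-0.69, limma adjusted p = 0.0184) and *TpnC73F* (-0.35, 0.0408) went towards dye B, and *Tm2* (1.10, 0.0184) towards dye A. The 2 that passed in pair 3 were *TpnC41C* (-1.39) and *TpnC73F* (-1.31), both lower in the numerator pool (limma adjusted p = 0.0233 for each). Over all clones 3.2% passed in pair 3, 1.62% lower in the numerator pool. With arrays scaled to one spread or with quantile normalization 0 clones passed there. The eye list had 0 of 3 clones past the dye threshold in limma (8.56% of all clones). Of these, 1 passed in pair 3 (3.2% of all clones), a *Galphaq* clone (-0.99, limma adjusted p = 0.0316). The other *Galphaq* clone stood at -0.18 in pair 3 (adjusted p = 0.552). The ovary and fat body list had 1 of 4 past the dye threshold (8.56% of all clones), *mael* (-0.41, limma adjusted p = 0.0189), and 0 in pair 3. Of its 4 clones 2 lay below 0 and 2 above, the latter both of *exu* (0.16 and 0.05). The part of tissue content in the values of *Sh*, *slo* and *nSyb* was not tested.

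**Figure D5:**
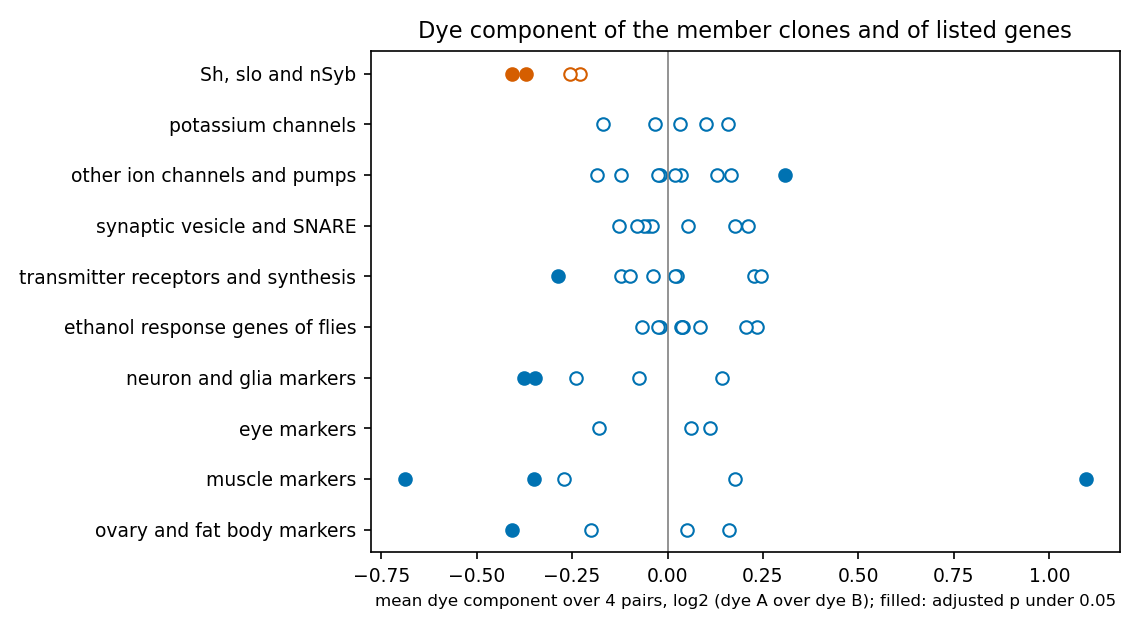
Mean dye component over 4 pairs (log2, dye A over dye B) of the *Sh*, *slo* and *nSyb* clones (top row) and of the clones of each gene list, filled where the limma adjusted p was under 0.05. The top row runs from -0.41 to -0.23, while the other potassium channel clones run from -0.17 to 0.16 and synaptic vesicle clones from -0.13 to 0.21. Other lists reach the range of the top row: transmitter receptors run down to -0.29, neuron and glia markers to -0.38, ovary and fat body to -0.41. Muscle clones run from -0.69 to 1.10.

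The genes most like each clone were sought by the root mean square difference over the 8 arrays in dye orientation, among clones with a single symbol. The nearest to *Sh* were *CG42541* (0.15), *CG34417* (0.15) and *mura* (0.16), where the median clone lay at 0.53. *nSyb* lay at 0.20 from *Sh*, with 7 named clones nearer to *Sh* and 29 nearer to *nSyb*. For *nSyb* the nearest were *Ppcs*, an enzyme gene of coenzyme A synthesis (0.10), *Ccs*, the copper chaperone of superoxide dismutase (0.12), and *CG9297* (0.12). For the second *slo* clone they were *futsch*, a microtubule-associated protein gene of neurons (0.15), *gdrd* (0.15) and *CG42541* (0.17). For the first *slo* clone they were *CG5139* (0.14), *Usp7*, a ubiquitin protease gene (0.17), and *CG12983* (0.18). The clones of *slo* were not each other's nearest: they lay 0.28 apart, with 92 named clones nearer to the first and 176 nearer to the second. Over 7 arrays, without the array that stood apart, the nearest were *CG42541* (0.15) for *Sh*, *Ccs* (0.11) for *nSyb*, *yki*, the co-activator gene of the Hippo pathway (0.14), for the second *slo* clone and *CG5139* (0.13) for the first.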

How the data were processed

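RNA was compared on 8 arrays of 4 pool pairs. The authors deposited 1 log2 ratio per spot for 16896 spots. The log base was inferred, the largest value being 17.5 in size, and the background correction, within-array normalization and genome build are not stated in the labels or the file. Array medians were subtracted and neighbouring spots averaged. Symbols came from GEO's platform annotation (1 symbol for 2833 clones, several for 76, none listed for 5539), updated through Entrez identifiers in the RefSeq table of Release 6, which held every one of the 2833; it served for naming alone.

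The fits covered all 8448 clones with limma 3.58.1 in R 4.3.3 and Benjamini-Hochberg adjustment at 5%. The dye component was tested over 4 pair means, the even-odd component over 4 half-differences, and pool differences in a fit to 8 arrays with a dye intercept. That residual is technical, so its p-values speak of these pools. Both arrays of a pair carry the same RNA, so the pair was the replicate (within-pair correlation of residuals -0.22).

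Scripts were tested on simulated data. Members, lists and tests were chosen with earlier results of these data known. Named genes are all clones of the members, their 3 nearest clones by root mean square difference, and list members that passed or had the smallest p. Other listed genes were chosen after their values were seen. Alternatives are given in the closing section. Spot intensities were not used, so dim spots could not be filtered.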

Additional observations from a re-analysis of the deposited data

Results flagged for a closer look

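Sets of 4 values (label groups, pair means and pool differences of each clone) were screened for an isolated value, 16 sets in all, and 1 was found. About 1 set in 20 would give one by chance. The first *slo* clone stood at -0.58 on the normal-label array of pair 1, against -0.36 to -0.31 on the other normal-label arrays. The gap made up 0.83 of the range, just above the critical value for 4 values. Its spots on that array lay 0.02 apart, and the reversed-label array of the same pair gave -0.63.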

How the results depend on the processing

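The 723 dye calls, and the 2 among the *Sh*, *slo* and *nSyb* clones, became 286 and 1 with arrays scaled to one spread, 270 and 1 with quantile normalization, 49 and 0 with first spots, 182 and 1 with second spots, 3 and 0 at a 1% threshold, 0 and 0 if the ratio is read the other way, 0 and 0 with pair 3 represented by its normal-label array, and 76 and 1 with 8 arrays and no pair block. The pair as a block (8 arrays) gave 693 and 2. Among clones with a single symbol 239 passed, fewer clones being tested. Turning the sign of the reversed-label array of pair 3 gave 481 and 3, and leaving that array out with 7 arrays taken as independent, a choice made after seeing the data, gave 318 and 2. Leaving out 1 pair gave 3 to 359 calls, and 0 to 1 among the 4 clones. The even-odd test kept 0 calls except under the other reading (723, of them 2 of the 4 clones). The F-test gave 1 call among clones with a symbol, 8 when pair 3 lacked its reversed-label array, and 0 to 3 without 1 pair. The 270 calls of pair 3 became 0 with scaled arrays, quantile normalization, second spots, the other reading or the turned array, 8 with first spots, 3 at 1%, 115 among clones with a symbol, 87 without its reversed-label array, and 2 to 157 without another pair, and the 4 clones added 0 in each of these. The *slo* clone difference ranged from -0.19 to -0.17 (dye) and from 0.049 to 0.21 (even-odd) without 1 pair. Leaving out pairs or the array of pair 3 for this difference, for neighbours in the order and for the nearest clones was chosen after seeing the data. The cause of these changes was not tested.

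Signs turned in these cases, of which only the first involves a called value. Under the other reading the dye component of the first *slo* clone was 0.0097 and its even-odd component -0.41, and the *slo* clone difference was 0.12 (dye) and -0.18 (even-odd). The pair 1 differences of *Sh* and the *slo* clones became -0.44, -0.61 and -0.39, the pair 2 differences of *Sh*, *slo* and *nSyb* -0.32, -0.41, -0.22 and -0.30, and the pair 4 difference of the first *slo* clone -0.40. With first spots alone, *Sh* in pair 1 was -0.043, the first *slo* clone -0.082 in pair 2, 0.15 in pair 3 and -0.028 in pair 4, and the second -0.061 in pair 2. With second spots alone, the even-odd component of the first *slo* clone was -0.023 and its pair 1 difference -0.079, *nSyb* in pair 1 was 0.0197 and *Sh* in pair 2 -0.041. *nSyb* in pair 1 was 0.044 with scaled arrays and 0.046 with quantile normalization. The even-odd component of the first *slo* clone ranged from -0.018 to 0.062 when 1 pair was left out and was -0.0063 with the turned array, and its pair 3 difference ranged from -0.15 without another pair to 0.11 without the reversed-label array. The number of arrays, and spots without intensities, limit what can be resolved.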
